A study of Mus musculus with 9 samples.

Results

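The genes described here are 33 genes of the endoplasmic reticulum (ER) folding machinery, taken by symbol from the 52550 genes of the deposited count table. They hold 9 genes of the chaperone cycle of BiP, 4 protein disulfide isomerases, 2 lectin chaperones, 4 genes of ER-associated degradation, 3 genes of the unfolded protein response, 2 genes of the translocon and 9 genes of procollagen folding and modification. The samples were micromass cultures, dense spots of mesenchymal cells that form cartilage in the dish. The cells came from mouse forelimbs at embryonic day 12, and after overnight attachment they were grown for 6 days with one of 3 additions. The control group received DMSO, the solvent of the inhibitors. The FMK group received Z-VAD-FMK and the OPH group received Q-VD-OPH, each at 100 µM. Both are peptide-based inhibitors of caspases, the proteases of apoptosis. Z-VAD-FMK carries a fluoromethyl ketone on a valyl-alanyl-aspartyl peptide, and Q-VD-OPH carries a difluorophenoxymethyl ketone on a quinoline-capped valyl-aspartyl peptide. No strain or genotype is given in the labels. All cultures shared a medium with serum, β-glycerol phosphate and ascorbic acid, a cofactor of the collagen hydroxylases. Each group had 3 libraries, called biological replicates by the labels, and a library is named below by its group and number.

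Proteins that are secreted or placed in a membrane enter the ER through the SEC61 channel and fold there. BiP, the ER member of the HSP70 family, binds unfolded chains and is driven by J-domain partners and exchange factors. Disulfide isomerases form and rearrange disulfide bonds, and calnexin and calreticulin hold glycoproteins by their sugars. Procollagen needs further help, since its prolines and lysines are hydroxylated and its prolines isomerized before the triple helix closes, and HSP47 then holds the helix until export. When unfolded protein builds up, the sensors IRE1, ATF6 and PERK raise the transcription of many of these genes. Cartilage and fibroblast cells, which secrete collagen in bulk, depend on this machinery.

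Messenger RNA was read as 3′ tags, so that a count stands for the end of a transcript and levels are given as CPM, the counts scaled to a common library total with edgeR's TMM factors, without division by length. The 9 libraries held 5659789 to 6867350 counts and 16588 to 17656 detected genes, and 13255 genes passed the filter on low counts, among them all 33 genes described here. A gene is called higher or lower where edgeR's quasi-likelihood test gave a Benjamini-Hochberg adjusted p under 0.05 over all genes tested. Cartilage markers checked the label of limb-derived chondroblasts: all 14 were detected in every group, at a summed level of 3406 to 4851 CPM with DMSO, 1735 to 1861 CPM with FMK and 1611 to 2779 CPM with OPH. The cultures were mixed, since macrophage, adipocyte and skeletal muscle transcripts were also present. Library 3 of every group had the lowest adipocyte and the highest muscle marker sum of its group. In such bulk samples, fewer cells of a type and less RNA per cell cannot be told apart.

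Genes of ER folding were called lower with both inhibitors, and the changes were small. With FMK, 11 of the 33 genes were called lower and 1 higher, where 10.1% of all genes tested were lower and 10.4% higher. With OPH, 17 of the 33 were called lower, against 8.11% of all genes tested. None was called higher with OPH, against 8.61% of all genes tested. None was higher at an unadjusted p under 0.05 or by DESeq2 either, where the share of all genes is not given. The median log2 fold change of the 33 genes was -0.15 with FMK and -0.29 with OPH, while the median of all genes tested was -0.0064 and -0.0025. Both comparisons use the same DMSO libraries and so are not independent. Among the called genes, the fold changes ran from -0.97 to 0.30 on the log2 scale with FMK and from -1.19 to -0.26 with OPH. Only Sdf2l1 with OPH changed by at least 2-fold, whereas 1087 of the 2724 genes called with FMK and 676 of the 2216 called with OPH did so over the whole table.

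Summed over the 33 genes, the level was 11987 to 12453 CPM in the DMSO libraries, 10459 to 11400.3 CPM with FMK and 9756 to 10179 CPM with OPH, and the 3 ranges did not overlap. As a share of raw counts, without TMM, the DMSO libraries held 1.23% to 1.26% in these genes, the FMK libraries 0.987% to 1.10% and the OPH libraries 0.999% to 1.04%. On that scale both inhibitors still lay below DMSO, and OPH lay inside the FMK range. Ranges of single genes lay wholly below those of DMSO for 14 of the 33 genes with FMK, against 18.1% of all genes tested. With OPH they did so for 21 of the 33, against 17.1% of all genes. The plot of fold changes by role shows how the calls spread over the machinery, and the plot of levels gives each library.

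**Figure D1:**
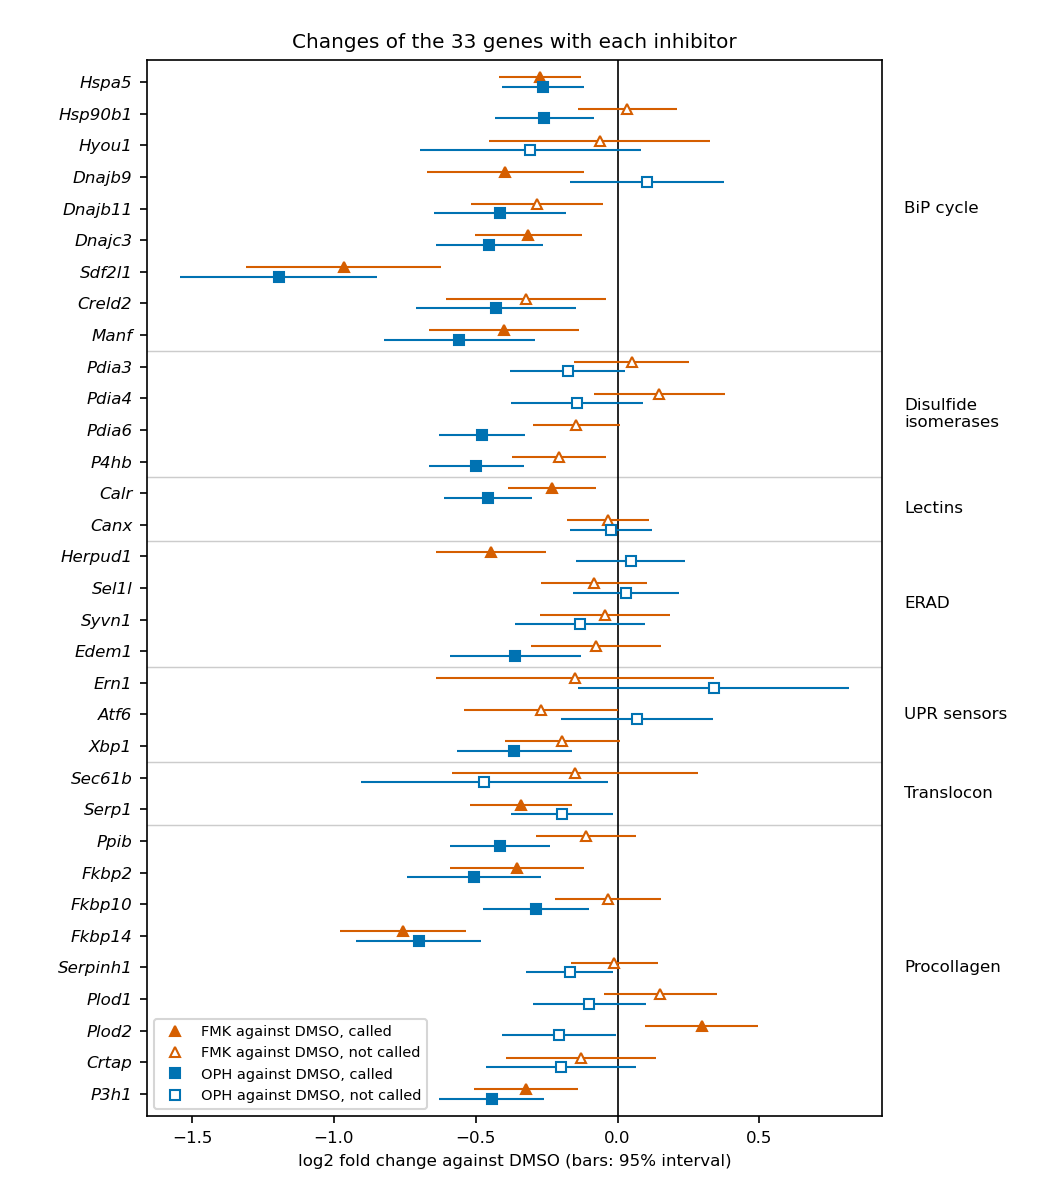
Log2 fold change of each of the 33 genes against DMSO with FMK (triangles) and OPH (squares), with 95% confidence intervals, grouped by role. Filled symbols are called; 11 genes were lower and 1 higher with FMK, and 17 were lower with OPH.

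**Figure D2:**
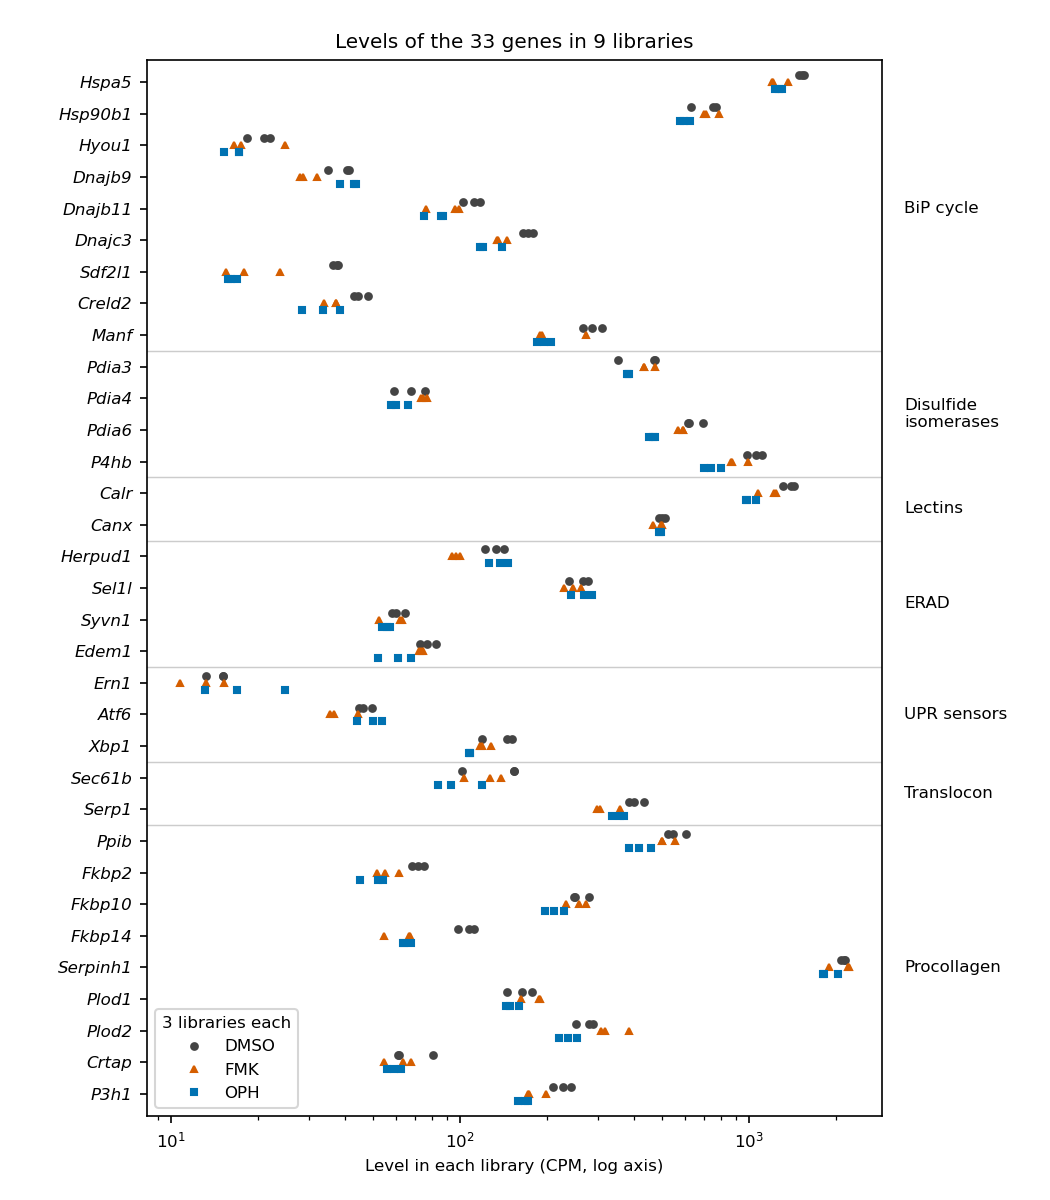
Level of each gene in every library in CPM on a log axis, for DMSO (circles), FMK (triangles) and OPH (squares), 3 libraries each. Levels run from Ern1, at 10.8 to 24.7 CPM, to Serpinh1, at 1806 to 2215 CPM.

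Promoters of the genes were read for the elements through which ATF6 and XBP1 are known to act. The window ran from 250 bases before to 50 bases after each gene's start in the RefSeq table of GRCm38.p6, the assembly also called mm10, and 28 of the 33 genes were in that table. The others were Manf, Fkbp10, Atf6, Hyou1 and Plod2. The ER stress element was searched on both strands as CCAAT, 9 bases of any kind and CCACG. It was found for 8 of the 28 genes (28.6%), against 37 of all 27025 genes in the table (0.137%), or 0.119% of its 32851 windows. A second element, ATTGG, 1 base of any kind and CCACG, was found for 2 of the 28 genes and for 0.0444% of all genes. The core TGACGTGG, bound by XBP1, was found for 0 of the 28 genes and for 0.714% of all genes. Each match below is read on the gene's own strand, 5′ to 3′, with the element in capitals and its place given as bases before the start. Hsp90b1 held 2 matches, and those in Calr, Creld2 and 1 of Hsp90b1 run in the reverse direction.
Calr, first element at chr8:84847070-84847098 on the minus strand, 162 to 144 bases before the start: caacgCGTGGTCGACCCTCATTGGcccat
Canx, first element at chr11:50325795-50325823 on the minus strand, 145 to 127 bases before the start: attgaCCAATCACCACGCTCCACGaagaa
Creld2, first element at chr15:88819515-88819543 on the plus strand, 126 to 108 bases before the start: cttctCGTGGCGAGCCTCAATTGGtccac
Dnajc3, first element at chr14:118937822-118937850 on the plus strand, 105 to 87 bases before the start: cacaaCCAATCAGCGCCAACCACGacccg
Hsp90b1, first element at chr10:86705528-86705556 on the minus strand, 107 to 89 bases before the start: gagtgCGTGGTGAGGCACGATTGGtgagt
Hsp90b1, first element at chr10:86705633-86705661 on the minus strand, 212 to 194 bases before the start: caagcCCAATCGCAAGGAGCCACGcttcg
Hspa5, first element at chr2:34772020-34772048 on the plus strand, 65 to 47 bases before the start: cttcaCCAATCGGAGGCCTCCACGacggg
Pdia6, first element at chr12:17266486-17266514 on the plus strand, 98 to 80 bases before the start: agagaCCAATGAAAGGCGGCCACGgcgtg
Syvn1, first element at chr19:6046527-6046555 on the plus strand, 44 to 26 bases before the start: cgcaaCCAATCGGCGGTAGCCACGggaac
Dnajb11, second element at chr16:22857847-22857867 on the plus strand, just after the start: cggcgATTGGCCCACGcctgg
Herpud1, second element at chr8:94386372-94386392 on the plus strand, 52 to 42 bases before the start: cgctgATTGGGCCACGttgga
The stretch of 250 bases before the start of Hspa5 (chr2:34771840-34772089, plus strand) shows the element in its setting near the RefSeq start. The gene coordinates in the deposited table begin earlier, at 34771970, so that the element lies before the RefSeq start and inside the gene as that table draws it.
Hspa5 promoter: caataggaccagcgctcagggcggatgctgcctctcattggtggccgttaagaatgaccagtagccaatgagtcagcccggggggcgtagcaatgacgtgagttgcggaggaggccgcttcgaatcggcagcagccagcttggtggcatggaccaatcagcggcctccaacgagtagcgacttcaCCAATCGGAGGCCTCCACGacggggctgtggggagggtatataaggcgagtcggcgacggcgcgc

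Genes with and without the element were both among those called. Of the 8 genes with the first element, 3 were called lower with FMK and 6 with OPH, at median log2 fold changes of -0.19 and -0.35. Of the 20 genes with a window and no such element, 7 were lower with FMK and 9 with OPH, at medians of -0.17 and -0.28. Over all genes tested, 10.1% were lower with FMK and 8.11% with OPH. Outside the list, 8 further genes with the element passed the filter, and 2 of them were called higher with OPH. A match is a description of the letters in the window and says nothing of binding in these cultures.

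Hspa5, the gene of BiP, was the second most abundant of the 33 genes after Serpinh1. It lies on chromosome 2 at positions 34771970 to 34777547 in mm10. Hspa5 was at 1555, 1524 and 1489.7 CPM in DMSO libraries 1 to 3, at 1206, 1209 and 1366 CPM with FMK and at 1231, 1306 and 1269.8 CPM with OPH. All 3 libraries of each inhibitor lay below all 3 of DMSO, and the ranges of the inhibitors overlapped. The log2 fold change was -0.27 ± 0.069 (SE, adjusted p = 0.00832) with FMK and -0.26 ± 0.069 (SE, adjusted p = 0.0129) with OPH. Sdf2l1, a partner that keeps BiP clients soluble, fell the most of the 33 genes. The level of Sdf2l1 was 36.4, 37.4 and 37.9 CPM with DMSO, 23.8, 15.5 and 17.8 CPM with FMK and 16.1, 15.8 and 16.9 CPM with OPH. The FMK and OPH libraries were all below the DMSO libraries, and FMK 1 stood above the other FMK and OPH libraries. On the log2 scale the change was -0.97 ± 0.16 (SE, adjusted p = 0.000329) with FMK and -1.19 ± 0.16 (SE, adjusted p = 6.39e-05) with OPH.

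Among the J-domain partners of BiP, Dnajc3 and Dnajb11 were lower and Dnajb9 went its own way. Libraries 1 to 3 held Dnajc3 at 179, 172 and 166 CPM with DMSO, at 135, 135 and 146 CPM with FMK and at 120.5, 118 and 139.9 CPM with OPH. Every inhibitor library was below every DMSO library. Dnajc3, which encodes the co-chaperone P58IPK, changed by -0.31 ± 0.090 (SE, adjusted p = 0.0178) with FMK and -0.45 ± 0.090 (SE, adjusted p = 0.00184) with OPH on the log2 scale. Dnajb11 reached 102, 112 and 117 CPM in the DMSO libraries, 96.5, 76.3 and 99.1 CPM in the FMK libraries and 86.3, 75.1 and 87.3 CPM in the OPH libraries. Ranges of both inhibitors lay below that of DMSO, and the call was made with OPH alone: -0.41 ± 0.11 (SE, adjusted p = 0.0148) against -0.29 ± 0.11 (SE, adjusted p = 0.0794) with FMK. Dnajb9 was at 41.2, 34.8 and 40.6 CPM in DMSO libraries 1 to 3, at 32.02, 27.9 and 28.7 CPM with FMK and at 38.5, 43.1 and 43.8 CPM with OPH. Dnajb9, which encodes ERdj4, was lower with FMK in all 3 libraries and overlapped DMSO with OPH. The log2 change came to -0.40 ± 0.13 (SE, adjusted p = 0.0403) with FMK and 0.10 ± 0.13 (SE, adjusted p = 0.665) with OPH.

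Manf and Creld2, secreted or ER-resident factors of the stress response, were also lower, as was Hsp90b1 with OPH. The level of Manf was 287, 267 and 311 CPM with DMSO, 192, 189.6 and 274 CPM with FMK and 185, 196 and 207 CPM with OPH. FMK 3 overlapped the DMSO range, while FMK 1, FMK 2 and the OPH libraries lay below it. The log2 fold change of Manf was -0.40 ± 0.12 (SE, adjusted p = 0.0338) with FMK and -0.56 ± 0.12 (SE, adjusted p = 0.00650) with OPH. Libraries 1 to 3 held Creld2 at 44.3, 48.2 and 43.0 CPM with DMSO, at 33.8, 37.4 and 37.2 CPM with FMK and at 38.4, 33.7 and 28.5 CPM with OPH. All inhibitor libraries were below all DMSO libraries, and only the OPH change of -0.43 ± 0.13 (SE, adjusted p = 0.0347) was called, with -0.32 ± 0.13 (SE, adjusted p = 0.103) for FMK. Hsp90b1 reached 769, 752 and 633 CPM in the DMSO libraries, 791, 701 and 712 CPM in the FMK libraries and 626, 579 and 595 CPM in the OPH libraries. The FMK libraries of Hsp90b1, the gene of GRP94, overlapped those of DMSO, and the OPH libraries lay just under them. In the fit, the log2 fold change was -0.26 ± 0.083 (SE, adjusted p = 0.0398) with OPH and 0.03 ± 0.083 (SE, adjusted p = 0.831) with FMK. Hyou1, the large nucleotide exchange factor of BiP, was scarce at 15.3 to 24.8 CPM over the 9 libraries and was called in no comparison. In all, 5 of the 9 genes of the BiP cycle were lower with FMK and 7 with OPH, against 10.1% and 8.11% of all genes tested.

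With 1 library fewer, several of these calls missed the threshold, and the fold changes of some genes moved. The log2 fold change with FMK ran from -0.33 to -0.24 for Hspa5 and from -0.35 to -0.28 for Dnajc3 as each library was left out. For Manf it ran more widely, from -0.59 to -0.30. With OPH it ran from -0.54 to -0.33 for Creld2 and from -0.34 to -0.21 for Hsp90b1. A call was lost in some of 15 other analyses, which changed the scaling, the filter, the test or the libraries, for Hspa5 (without DMSO 1, FMK 1 or FMK 2, adjusted p = 0.0522 to 0.0639), Dnajc3 (without DMSO 1, DMSO 2, FMK 1 or FMK 2, adjusted p = 0.0501 to 0.0802), Manf (without DMSO 1, DMSO 3, FMK 1 or FMK 2 or with the 2 groups fitted alone, adjusted p = 0.0741 to 0.155) and Dnajb9 (without DMSO 1, DMSO 3, FMK 2 or FMK 3, with no filter on low counts, with DESeq2, with the 2 groups fitted alone or with libraries 1 and 2 alone, adjusted p = 0.0637 to 0.169) in the FMK comparison. In the OPH comparison it was lost for Hspa5 (without DMSO 1 or OPH 1, adjusted p = 0.0626 to 0.0698), Hsp90b1 (without DMSO 1, DMSO 2, OPH 1, OPH 2 or OPH 3 or with limma-voom, adjusted p = 0.0530 to 0.191), Dnajb11 (without DMSO 3 or OPH 2, adjusted p = 0.0556 to 0.0872) and Creld2 (without DMSO 1, DMSO 2, DMSO 3, OPH 2 or OPH 3 or with libraries 1 and 2 alone, adjusted p = 0.0503 to 0.156). Sdf2l1 kept both calls, and Dnajc3 and Manf their OPH calls, in all 15. With the replicate number as a block, Dnajb11 was also called with FMK (adjusted p = 0.0228).

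Of the 4 disulfide isomerases, Pdia6 and P4hb were lower with OPH. Pdia6 was at 696, 616 and 621 CPM in DMSO libraries 1 to 3, at 591, 589.7 and 567 CPM with FMK and at 449.6, 466 and 472 CPM with OPH. The 3 groups of Pdia6 did not overlap, with FMK between DMSO and OPH. Its log2 fold change was -0.48 ± 0.072 (SE, adjusted p = 0.000165) with OPH and -0.14 ± 0.072 (SE, adjusted p = 0.182) with FMK. P4hb encodes both a disulfide isomerase and the β subunit of prolyl 4-hydroxylase, the enzyme that hydroxylates collagen prolines. The level of P4hb was 1112, 986 and 1061 CPM with DMSO, 994, 866 and 877 CPM with FMK and 799.7, 697 and 740.4 CPM with OPH. Only OPH lay wholly below DMSO, and FMK 1 overlapped the DMSO range. The log2 fold change of P4hb was -0.50 ± 0.079 (SE, adjusted p = 0.000246) with OPH and -0.21 ± 0.079 (SE, adjusted p = 0.0750) with FMK. With the replicate block the FMK change was called as well (adjusted p = 0.0171). Pdia3, the isomerase that works with the lectin chaperones, and Pdia4 were called in no comparison, at 353 to 474 CPM and 57.6 to 76.9 CPM over the 9 libraries. Both OPH calls held in all 15 other analyses.

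The lectin chaperones parted. Libraries 1 to 3 held Calr at 1403, 1438 and 1308 CPM with DMSO, at 1239, 1077 and 1221 CPM with FMK and at 1061, 981 and 983 CPM with OPH. Calr, which encodes the soluble lectin calreticulin, was lower in every inhibitor library than in any DMSO library, and OPH was lower than FMK throughout. On the log2 scale the change was -0.23 ± 0.073 (SE, adjusted p = 0.0334) with FMK and -0.46 ± 0.073 (SE, adjusted p = 0.000287) with OPH. The FMK call was lost for Calr (without DMSO 1, DMSO 2 or FMK 2 or with the 2 groups fitted alone, adjusted p = 0.0692 to 0.204), and the OPH call held in all 15. Canx reached 512, 489 and 502 CPM in the DMSO libraries, 497, 468 and 502 CPM in the FMK libraries and 491, 498 and 489.6 CPM in the OPH libraries. Canx, which encodes the membrane-bound calnexin, overlapped in all 3 groups. The 95% interval of its log2 fold change was -0.18 to 0.11 with FMK and -0.17 to 0.12 with OPH.

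In ER-associated degradation, the pathway that returns misfolded proteins to the cytosol, Herpud1 fell with FMK alone. Herpud1 was at 133, 122 and 142 CPM in DMSO libraries 1 to 3, at 94.3, 96.6 and 100.4 CPM with FMK and at 126, 138 and 146 CPM with OPH. The FMK libraries were all below the DMSO and OPH libraries, which overlapped. Herpud1, which encodes a membrane organizer of the degradation complex and lies on chromosome 8 at positions 94386438 to 94395377, had a log2 fold change of -0.45 ± 0.092 (SE, adjusted p = 0.00188) with FMK and 0.05 ± 0.091 (SE, adjusted p = 0.804) with OPH. The level of Edem1 was 77.2, 82.4 and 72.5 CPM with DMSO, 72.2, 74.7 and 73.4 CPM with FMK and 61.0, 67.5 and 52.1 CPM with OPH. Edem1, a lectin that marks glycoproteins for degradation, was below DMSO in all 3 OPH libraries and overlapped DMSO with FMK. The log2 change came to -0.36 ± 0.11 (SE, adjusted p = 0.0305) with OPH and -0.07 ± 0.11 (SE, adjusted p = 0.700) with FMK. The OPH call was lost for Edem1 (without DMSO 1, DMSO 2, OPH 1 or OPH 3 or with libraries 1 and 2 alone, adjusted p = 0.0733 to 0.155), while the Herpud1 call held in all 15 other analyses. Sel1l and Syvn1, the core of the ubiquitin ligase of this pathway, were called in no comparison, at 229 to 286 CPM and 52.6 to 64.4 CPM.

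Among Xbp1, Ern1 and Atf6, the 3 listed genes of the unfolded protein response, Xbp1 was called lower with OPH. Libraries 1 to 3 held Xbp1 at 146, 119 and 152 CPM with DMSO, at 117, 119 and 128 CPM with FMK and at 107, 109 and 108 CPM with OPH. Every OPH library was below every DMSO library and DMSO 2 was the lowest of its group, while FMK overlapped DMSO. Xbp1, whose spliced product activates many of the genes above, had a log2 fold change of -0.36 ± 0.097 (SE, adjusted p = 0.0144) with OPH and -0.19 ± 0.097 (SE, adjusted p = 0.179) with FMK. The call was lost for Xbp1 (without DMSO 1, DMSO 3 or OPH 1 or with libraries 1 and 2 alone, adjusted p = 0.0504 to 0.0779). The counts are of all Xbp1 transcripts, so spliced and unspliced forms were not separated. Ern1, the gene of the sensor IRE1, was at 10.8 to 24.7 CPM, with OPH 2 the highest library. Its log2 fold change of 0.34 ± 0.23 (SE, adjusted p = 0.361) with OPH had a 95% interval of -0.14 to 0.81, and without OPH 2 it was 0.06. The sensor gene Atf6 was below DMSO in all 3 FMK libraries, at 35.6 to 44.5 CPM against 44.8 to 49.6 CPM, and its log2 fold change of -0.27 ± 0.13 (SE, adjusted p = 0.161) was not called. Scaled to library size alone, Atf6 and Xbp1 were both called lower with FMK (adjusted p = 0.0443 and 0.0359).

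At the translocon, Serp1 was called lower with FMK. Serp1 reached 401, 385 and 433 CPM in the DMSO libraries, 298, 306 and 358 CPM in the FMK libraries and 359, 335 and 371 CPM in the OPH libraries. Both inhibitors lay below DMSO in every library, and FMK and OPH overlapped. Serp1, which encodes the stress-associated partner of SEC61 also named RAMP4, had a log2 fold change of -0.34 ± 0.085 (SE, adjusted p = 0.00796) with FMK and -0.20 ± 0.085 (SE, adjusted p = 0.137) with OPH. The FMK call was lost for Serp1 (without FMK 1 or FMK 2, adjusted p = 0.0533 to 0.0559), and the replicate block added a call with OPH (adjusted p = 0.0490). Sec61b was at 154, 102 and 154 CPM in DMSO libraries 1 to 3, at 139, 103 and 127 CPM with FMK and at 119, 83.9 and 92.9 CPM with OPH. Sec61b, a subunit of the channel, overlapped in all 3 groups, with library 2 the lowest of each. Its log2 fold change with OPH was -0.47 ± 0.19 (SE, adjusted p = 0.143) without the block, and the block, which takes out such shared differences between library numbers, brought a call (adjusted p = 0.000320).

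**Figure D3:**
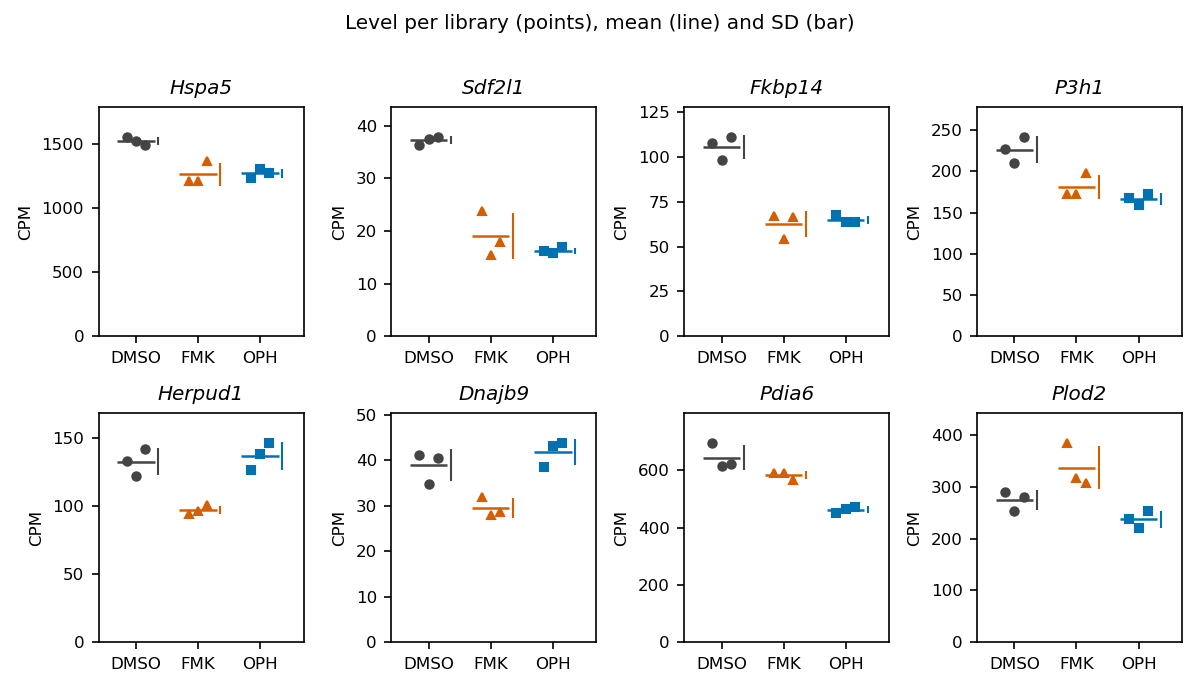
Level in CPM of 8 genes in each library (points), with the group mean (line) and SD (bar), n = 3 per group and every axis starting at 0. Hspa5, Sdf2l1, Fkbp14 and P3h1 were lower with both inhibitors, Herpud1 and Dnajb9 with FMK, Pdia6 with OPH, and Plod2 was higher with FMK.

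Of the procollagen genes, Fkbp14, Fkbp2, Fkbp10 and Ppib encode peptidyl-prolyl isomerases, which turn the prolines of a chain, and the first pair was lower with both inhibitors. Fkbp14, at positions 54577604 to 54597308 on chromosome 6, had the second largest change of the 33 genes. The level of Fkbp14 was 108, 98.6 and 111 CPM with DMSO, 67.1, 54.6 and 66.6 CPM with FMK and 67.7, 64.0 and 63.6 CPM with OPH. All inhibitor libraries were far below all DMSO libraries, with the inhibitors overlapping. The log2 fold change was -0.76 ± 0.10 (SE, adjusted p = 4.03e-05) with FMK and -0.70 ± 0.10 (SE, adjusted p = 0.000136) with OPH. Libraries 1 to 3 held Fkbp2 at 71.6, 75.0 and 68.5 CPM with DMSO, at 61.6, 54.9 and 51.7 CPM with FMK and at 52.0, 54.0 and 45.3 CPM with OPH. The inhibitor libraries of Fkbp2 were all below the DMSO libraries, and it changed by -0.35 ± 0.11 (SE, adjusted p = 0.0323) with FMK and -0.51 ± 0.11 (SE, adjusted p = 0.00440) with OPH.

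Ppib and Fkbp10 were called lower with OPH alone. The difference between the inhibitors was called for Ppib and not for Fkbp10 (adjusted p = 0.0305 and 0.0825). Ppib reached 547, 527 and 606 CPM in the DMSO libraries, 499, 500.3 and 554 CPM in the FMK libraries and 386, 415 and 459 CPM in the OPH libraries. OPH lay below DMSO and FMK in every library, and FMK overlapped DMSO. Ppib, which encodes cyclophilin B of the prolyl 3-hydroxylation complex, had a log2 fold change of -0.41 ± 0.084 (SE, adjusted p = 0.00218) with OPH and -0.11 ± 0.084 (SE, adjusted p = 0.398) with FMK. Fkbp10 was at 251, 249 and 279.9 CPM in DMSO libraries 1 to 3, at 272, 233 and 257 CPM with FMK and at 198, 212 and 229.9 CPM with OPH. Fkbp10, which encodes the collagen chaperone FKBP65, was lower in all 3 OPH libraries than in any DMSO library. In the fit, the log2 fold change was -0.29 ± 0.088 (SE, adjusted p = 0.0323) with OPH and -0.03 ± 0.088 (SE, adjusted p = 0.848) with FMK.

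P3h1 and Crtap encode the other members of the prolyl 3-hydroxylation complex. The level of P3h1 was 227, 210.3 and 242 CPM with DMSO, 173, 172 and 198 CPM with FMK and 168, 159 and 173 CPM with OPH. Every inhibitor library of P3h1, the hydroxylase itself, was below every DMSO library. Its log2 fold change was -0.32 ± 0.088 (SE, adjusted p = 0.0133) with FMK and -0.44 ± 0.088 (SE, adjusted p = 0.00178) with OPH. Libraries 1 to 3 held Crtap at 61.6, 61.0 and 81.0 CPM with DMSO, at 67.8, 63.4 and 54.8 CPM with FMK and at 59.0, 55.9 and 62.3 CPM with OPH. Crtap, its scaffold, overlapped in all 3 groups, with DMSO 3 the highest library, and was called in no comparison.

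The lysyl hydroxylases and HSP47 were not called lower with either inhibitor. Plod2 reached 290.0, 252 and 279 CPM in the DMSO libraries, 384, 317 and 307 CPM in the FMK libraries and 237, 221 and 254 CPM in the OPH libraries. All 3 FMK libraries of Plod2, which hydroxylates the telopeptide lysines used for crosslinks, were above all DMSO and OPH libraries, and OPH overlapped DMSO. On the log2 scale the change was 0.30 ± 0.095 (SE, adjusted p = 0.0334) with FMK and -0.21 ± 0.095 (SE, adjusted p = 0.159) with OPH. Plod1 was at 177, 146 and 164 CPM in DMSO libraries 1 to 3, at 189, 188 and 163 CPM with FMK and at 160.4, 149.6 and 145 CPM with OPH. The groups of Plod1, which hydroxylates helix lysines, overlapped DMSO and no change against DMSO was called. The level of Serpinh1 was 2148, 2133 and 2089 CPM with DMSO, 2215, 1896 and 2209 CPM with FMK and 1806, 1827 and 2031 CPM with OPH. Serpinh1, which encodes the collagen chaperone HSP47, overlapped DMSO with FMK and lay below it with OPH. Its log2 fold change of -0.17 ± 0.073 (SE, adjusted p = 0.134) with OPH was not called.

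Of these 9 genes, 3 were lower and 1 higher with FMK, and 5 were lower with OPH. Over all genes tested, 10.1% were lower and 10.4% higher with FMK, and 8.11% were lower with OPH. Fkbp14 kept both calls in all 15 other analyses, as did the OPH calls of Fkbp2, P3h1 and Ppib. The FMK call was lost for Fkbp2 (without DMSO 1, DMSO 2, FMK 2 or FMK 3 or with libraries 1 and 2 alone, adjusted p = 0.0774 to 0.108), P3h1 (without DMSO 3, FMK 1 or FMK 2, adjusted p = 0.0584 to 0.0787) and Plod2 (without DMSO 2 or FMK 1 or scaled to library size, adjusted p = 0.147 to 0.190), and without FMK 1 the log2 fold change of Plod2 was 0.19. The OPH call was lost for Fkbp10 (without DMSO 1, DMSO 3, OPH 1 or OPH 2, adjusted p = 0.0626 to 0.148).

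The 2 inhibitors were compared directly at the same dose and time, as 1 pair over all genes tested. Of the 33 genes 7 were called, against 8.86% of all genes tested. OPH was lower than FMK for 5 of them and higher for 2, where 4.66% of all genes were lower and 4.2% higher. Ranges of OPH lay wholly below those of FMK for 12 genes, against 13.2% of all genes, and above them for 2, against 13.9%. The median log2 fold change of OPH against FMK was -0.16 for the 33 genes and 0.0084 for all genes. Among the lower genes Plod2 differed the most, at -0.50 ± 0.095 (SE, adjusted p = 0.00288), followed by Pdia6 at -0.33 ± 0.072 (SE, adjusted p = 0.00781) and Ppib at -0.30 ± 0.084 (SE, adjusted p = 0.0305). Hsp90b1 differed by -0.29 ± 0.083 (SE, adjusted p = 0.0340) and P4hb by -0.29 ± 0.079 (SE, adjusted p = 0.0275). Dnajb9 and Herpud1 were higher with OPH than with FMK, at 0.50 ± 0.13 (SE, adjusted p = 0.0234) and 0.49 ± 0.092 (SE, adjusted p = 0.00272). Of these 7 calls, those of Herpud1 and Plod2 held in all 15 other analyses. The compounds differ in peptide, cap and ketone together, so that no single change of structure can be set against a response.

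For the 8 genes lower with both inhibitors the difference between the compounds was not called. Its 95% interval was -0.13 to 0.15 for Hspa5, -0.17 to 0.28 for Fkbp14 and -0.59 to 0.13 for Sdf2l1. Dnajc3 had an interval of -0.33 to 0.05, Manf of -0.42 to 0.11 and Fkbp2 of -0.39 to 0.09. For P3h1 it was -0.31 to 0.06 and for Calr -0.38 to -0.07. The interval of Calr excluded 0 and the other 7 held it, and for those 7 a difference up to the far end of the interval is not excluded by the spread between libraries. Calr lay lower with OPH in every library (adjusted p = 0.0635), and with the replicate block its difference was called (adjusted p = 0.0221), as were those of Sec61b (0.0147), Fkbp10 (0.0239) and Plod1 (0.0386). The block raised the genes called in this comparison from 1175 to 2139, and those of the 33 from 7 to 11, with 9 lower. Against DMSO, Dnajb11, Creld2, Edem1, Xbp1 and Fkbp10 were called lower with OPH only, and Serp1 with FMK only. Without the block, their differences between the compounds were not called (adjusted p = 0.553, 0.713, 0.120, 0.327, 0.0825 and 0.335 in that order). A call with a single inhibitor thus does not set the compounds apart for these genes.

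The direct comparison depended on the scaling. Scaled to library size alone, without the TMM composition factors, the median of all genes moved to 0.12, and 74.1% of the genes called were higher with OPH in place of 47.4%. Of the 7 calls, those of Herpud1, Dnajb9 and Plod2 remained, and Atf6 was added (adjusted p = 0.0307). The calls of Pdia6, Ppib, P4hb and Hsp90b1 were lost there (adjusted p = 0.0519, 0.151, 0.148 and 0.168), while their fold changes kept their sign. Other settings also ended calls for Dnajb9 (without FMK 2, FMK 3, OPH 2 or OPH 3 or with libraries 1 and 2 alone, adjusted p = 0.0527 to 0.0956), Ppib (without FMK 1, FMK 2, FMK 3, OPH 1 or OPH 2 or scaled to library size, adjusted p = 0.0610 to 0.151), P4hb (without FMK 1, OPH 2 or OPH 3 or scaled to library size, adjusted p = 0.0830 to 0.148) and Hsp90b1 (without FMK 1, FMK 2, OPH 1, OPH 2 or OPH 3 or scaled to library size, adjusted p = 0.0567 to 0.168). The calls of Plod2 and Herpud1 held in all 15. In the FMK comparison with DMSO, the same scaling moved the median of all genes to -0.11 and the higher share of calls from 50.8% to 34.3%, with 17 of the 33 genes lower. The genes added there were Dnajb11, Creld2, Pdia6, P4hb, Atf6 and Xbp1.

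**Figure D4:**
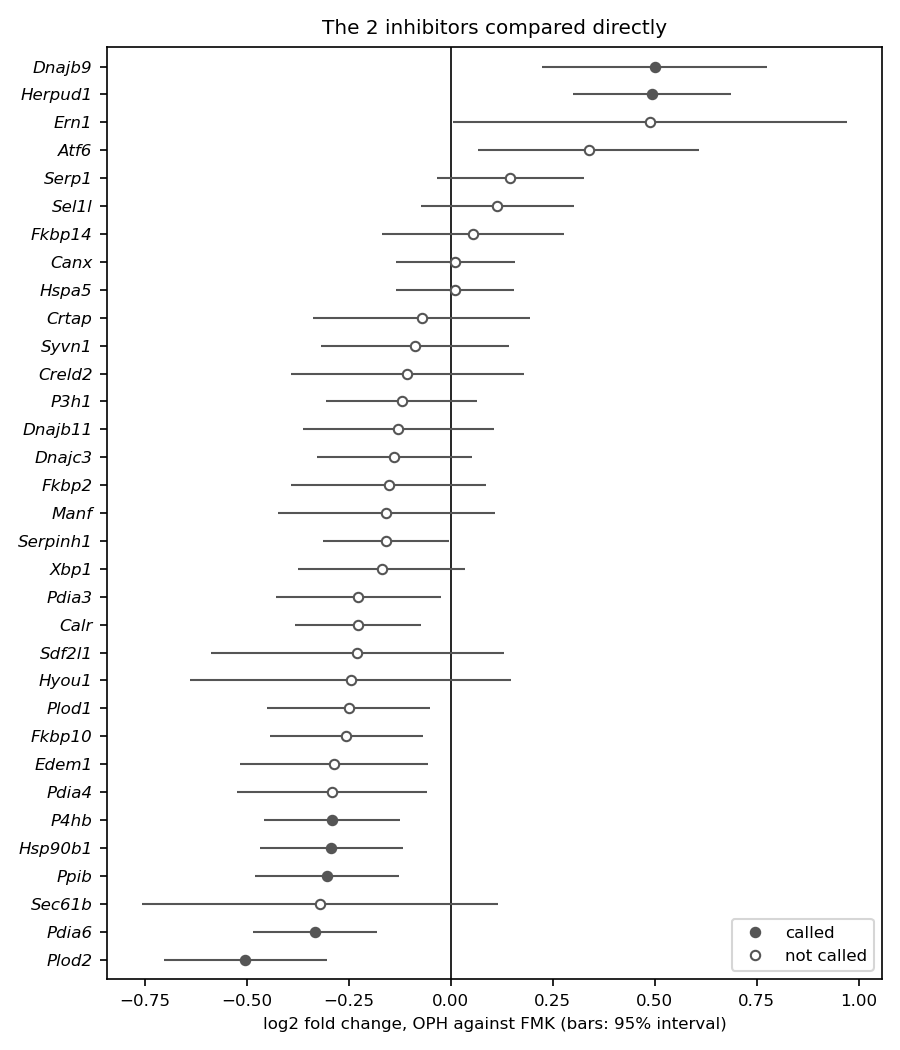
Log2 fold change of OPH against FMK for the 33 genes, ordered by size, with 95% confidence intervals and called genes filled. Plod2, Pdia6, Ppib, Hsp90b1 and P4hb were lower with OPH, and Dnajb9 and Herpud1 were higher.

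Counts of called genes among the 33 also moved when 1 library was left out, as did the counts over the whole table. Over the table, 1979 to 2512 genes were called with FMK in place of 2724, and 1487 to 1779 with OPH in place of 2216. Between the inhibitors 571 to 1050 were called in place of 1175. Against DMSO, 12 calls with FMK became 6 without DMSO 1, 7 without FMK 1 and 4 without FMK 2, and 17 calls with OPH became 11 without DMSO 1. Between the inhibitors, 7 calls became 4 without FMK 1, 3 without OPH 2 and 4 without OPH 3. With only libraries 1 and 2 of each group, 10 of the 33 genes were called with FMK, 15 with OPH and 8 between the inhibitors. The genes called over the whole table stayed within 1.5-fold of the main counts in that fit. Every call kept its sign in all 15 other analyses, which reuse these libraries. The threshold was passed in all 15 by 3 of the 12 FMK calls, 10 of the 17 OPH calls and 2 of the 7 between the inhibitors.

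Genes that work beside the 33 were read from further lists. Their counts stand beside shares of all genes tested of 10.1% lower and 10.4% higher with FMK. With OPH these shares were 8.11% lower and 8.61% higher. At ER entry and signal peptide cleavage, 3 of 22 genes were lower with FMK and 9 with OPH, at median log2 fold changes of -0.10 and -0.15. Scaled to library size alone, 8 were lower with each inhibitor. With the replicate block, 5 were lower and 1 higher with FMK, Ssr1 and Ssr4 among the lower (adjusted p = 0.0142 and 0.0233). Ssr4 and Ssr1, subunits of the translocon-associated complex, changed by -0.62 ± 0.085 (SE, adjusted p = 6.01e-05) and -0.44 ± 0.086 (SE, adjusted p = 0.00185) with OPH, and Sec61a1, the channel itself, by -0.29 ± 0.071 (SE, adjusted p = 0.00801). Tram1, a helper of the channel, changed by -0.40 ± 0.087 (SE, adjusted p = 0.00386). In N-glycan transfer, 4 of 11 genes were lower and 1 higher with FMK, and 6 were lower with OPH, at medians of -0.14 and -0.26. Dad1, a subunit of oligosaccharyltransferase, went from 344 ± 32.6 CPM (SD, n = 3) with DMSO to 247 ± 39.5 CPM with FMK and 230.4 ± 18.4 CPM with OPH. Tmem258, a further subunit, went from 213 ± 7.51 CPM (SD, n = 3) with DMSO to 176 ± 7.22 CPM with FMK and 148 ± 8.48 CPM with OPH. Both were called lower with both inhibitors, and the FMK call was lost for Tmem258 (without DMSO 2, DMSO 3 or FMK 2 or with libraries 1 and 2 alone, adjusted p = 0.0640 to 0.112). Ostc changed by -0.41 ± 0.088 (SE, adjusted p = 0.00361) with OPH, and Magt1 by -0.33 ± 0.079 (SE, adjusted p = 0.00598) with FMK. Magt1 was also called lower with OPH, where its log2 fold change ran from -0.30 to -0.22 as each library was left out. That call held in 9 of 15 other analyses.

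Further folding enzymes gave 2 higher and 2 lower of 23 with FMK, and 1 higher and 6 lower with OPH, at medians of -0.06 and -0.19 on the log2 scale. With FMK, 4 were lower with the replicate block, Mlec among them (adjusted p = 0.0308), and 5 with library size scaling. Ero1l, the oxidase that recharges disulfide isomerases, rose from 27.97 ± 2.68 CPM (SD, n = 3) with DMSO to 71.5 ± 3.85 CPM with FMK and 41.9 ± 2.12 CPM with OPH. Its log2 fold changes were 1.35 ± 0.12 (SE, adjusted p = 1.99e-07) and 0.58 ± 0.12 (SE, adjusted p = 0.00261), and that of OPH against FMK was -0.77 ± 0.12 (SE, adjusted p = 0.000523). Cnpy2 fell with both, at -0.57 ± 0.082 (SE, adjusted p = 5.71e-05) and -0.62 ± 0.082 (SE, adjusted p = 3.83e-05). Txndc11 changed by -0.53 ± 0.13 (SE, adjusted p = 0.00812) and Mlec by -0.32 ± 0.084 (SE, adjusted p = 0.0135) with OPH, where the call was lost for Mlec (without DMSO 3 or OPH 2, adjusted p = 0.0550 to 0.0856). With FMK, the log2 fold change of Txndc11 ran from -0.48 to -0.36 as each library was left out (adjusted p = 0.0330 to 0.0971). Of 16 other degradation genes, Selenos alone was lower with FMK, at -0.47 ± 0.090 (SE, adjusted p = 0.000974).

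In the PERK and ATF4 branch of the stress response, more genes were called higher than lower with each inhibitor. With FMK 4 of its 10 genes were higher and 2 lower, and with OPH 6 were higher, at median log2 fold changes of 0.24 and 0.39. Ddit3, which encodes CHOP, a factor linked to death under ER stress, went from 152 ± 5.62 CPM (SD, n = 3) with DMSO to 308 ± 21.8 CPM with FMK and 372 ± 26.1 CPM with OPH. Its log2 fold changes were 1.02 ± 0.084 (SE, adjusted p = 8.90e-08) and 1.29 ± 0.085 (SE, adjusted p = 5.70e-09). Atf3 rose from 8.29 ± 3.05 CPM (SD, n = 3) with DMSO to 51.7 ± 6.45 CPM with FMK and 64.1 ± 5.56 CPM with OPH. Trib3, a target of CHOP and ATF4, was higher with OPH, at 1.13 ± 0.096 (SE, adjusted p = 1.85e-07), and not called with FMK, at 0.26 ± 0.096 (SE, adjusted p = 0.0665), except with the replicate block (adjusted p = 0.0352). Between the inhibitors, 4 of the 10 genes were higher and 1 lower with OPH. Trib3 was among the higher, at 0.87 ± 0.095 (SE, adjusted p = 2.70e-05), as was Ddit3, whose call held in 7 of 15 other analyses. Nupr1 changed by 0.68 ± 0.085 (SE, adjusted p = 1.08e-05) with FMK and 0.33 ± 0.085 (SE, adjusted p = 0.0126) with OPH, and the OPH call was lost for Nupr1 (without DMSO 2 or OPH 2, adjusted p = 0.0526 to 0.0543). These genes also respond to stresses outside the ER. Of 6 other ER stress transducers, 3 were lower with FMK and 2 with OPH. Mbtps1, the protease that cleaves ATF6, changed by -0.41 ± 0.082 (SE, adjusted p = 0.00135) with FMK, Atf6b by -0.40 ± 0.11 (SE, adjusted p = 0.0144) and Creb3l2 by -0.38 ± 0.12 (SE, adjusted p = 0.0317). With the replicate block Creb3l2 was also called with OPH (adjusted p = 0.0153). Atf6b was called lower with OPH too, and that call was lost without DMSO 1, DMSO 2 or OPH 1 (adjusted p = 0.0700 to 0.124). As each library was left out, the log2 fold change with OPH ran from -0.43 to -0.29 for Atf6b and from -0.34 to -0.22 for Mbtps1. The FMK call was lost for Atf6b (without DMSO 1 or FMK 2, adjusted p = 0.0649 to 0.0794) and Creb3l2 (without DMSO 3, FMK 1 or FMK 2, with limma-voom or with libraries 1 and 2 alone, adjusted p = 0.0521 to 0.171).

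Other enzymes also modify and crosslink collagen. Of 15 other hydroxylation, glycosylation and crosslinking genes, 5 were higher and 1 lower with FMK, and 1 was higher and 4 lower with OPH, at medians of 0.19 and -0.25 on the log2 scale. Between the inhibitors, 5 were lower with OPH. The replicate block gave 7 higher and 3 lower with FMK, 2 higher and 6 lower with OPH, and 8 lower between the inhibitors. It added P3h4 with FMK and Loxl3 with OPH (adjusted p = 0.0103 and 0.0344). Loxl3 and Loxl1, lysyl oxidases that crosslink collagen, changed by 0.97 ± 0.11 (SE, adjusted p = 4.56e-06) and 0.52 ± 0.082 (SE, adjusted p = 0.000176) with FMK, and differed between the inhibitors by -0.69 ± 0.11 (SE, adjusted p = 0.000841) and -0.61 ± 0.082 (SE, adjusted p = 0.000174). Plod3, the third lysyl hydroxylase, changed by 0.52 ± 0.087 (SE, adjusted p = 0.000302) with FMK. P3h4, a partner of lysyl hydroxylase, changed by -0.59 ± 0.100 (SE, adjusted p = 0.000434) with OPH. Of 23 genes of export and processing, 1 was higher and 3 lower with FMK, and 1 was higher and 7 lower with OPH, at medians of -0.05 and -0.15. Pcolce2, an enhancer of propeptide removal, fell by 1.84 on the log2 scale with FMK and by 1.31 with OPH. Kdelr2, which returns ER residents, and Pcolce changed by -0.42 ± 0.085 (SE, adjusted p = 0.00242) and -0.33 ± 0.072 (SE, adjusted p = 0.00366) with OPH, and Adamts2, which removes propeptides, by -0.52 ± 0.13 (SE, adjusted p = 0.00619) with FMK. Adamts2 was also called lower with OPH, where its log2 fold change ran from -0.47 to -0.33 as each library was left out. That call held in 8 of 15 other analyses.

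**Figure D5:**
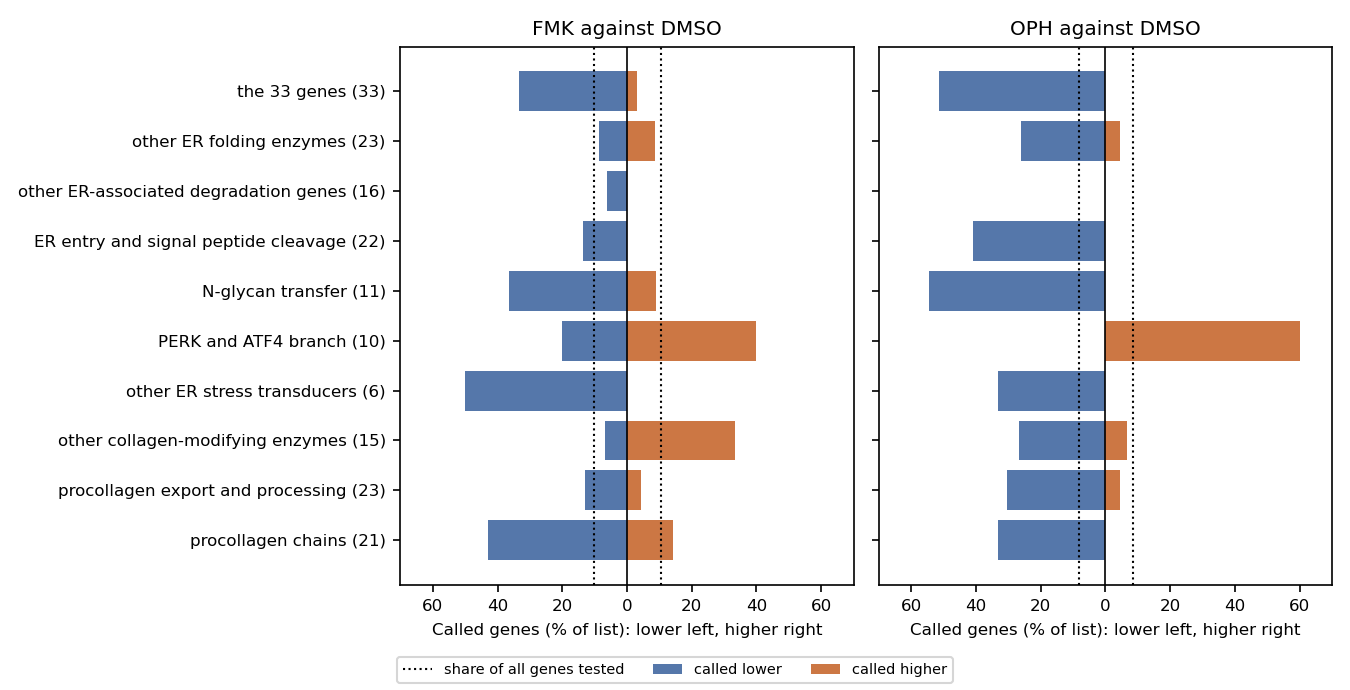
Share of each list called lower (left) or higher (right) against DMSO with FMK and with OPH, with the number of genes tested in parentheses and the share of all genes tested as dotted lines. The 33 genes, ER entry and N-glycan transfer lean to the left with OPH, and the PERK and ATF4 branch to the right.

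The summed level of the chains that this machinery folds lay lower with OPH. Over 21 procollagen genes it was 30105 to 32415 CPM with DMSO, 29730 to 31454 CPM with FMK and 23362 to 24074 CPM with OPH. The FMK and DMSO ranges overlapped, and OPH lay below both. With FMK, 9 of the 21 were lower and 3 higher, and with OPH 7 were lower, at medians of -0.08 and -0.36 on the log2 scale. With the replicate block, 10 were lower and 8 higher with FMK, and 12 were lower with OPH. Col1a1 and Col1a2, the type I chains, had log2 fold changes of -0.43 ± 0.071 (SE, adjusted p = 0.000398) and -0.27 ± 0.056 (SE, adjusted p = 0.00245) with OPH and of -0.08 ± 0.071 (SE, adjusted p = 0.507) and 0.10 ± 0.056 (SE, adjusted p = 0.253) with FMK. Col5a2 was higher with FMK, at 0.33 ± 0.062 (SE, adjusted p = 0.000974), and Col14a1 lower with both, at -1.19 ± 0.10 (SE, adjusted p = 2.01e-07) and -0.67 ± 0.10 (SE, adjusted p = 0.000197).

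Marker transcripts of cartilage, of other cell types and of the interferon response were read beside all of these genes. The cartilage list shares Col2a1 and the chains of collagens IX and XI with the 21 procollagen genes, so those counts overlap. Cartilage markers were lower in 11 of 14 with FMK and 7 of 14 with OPH. Macrophage markers were lower in 21 of 21 with FMK and 20 of 21 with OPH, and their sum was 1569 to 3030.3 CPM with DMSO, 40.5 to 58.4 CPM with FMK and 266 to 303 CPM with OPH. The 14 adipocyte markers summed to 526 to 2699 CPM with DMSO, 134 to 229.8 CPM with FMK, where Cidec was at 0, and 809 to 3128 CPM with OPH. Of these, 8 were lower with FMK. Skeletal muscle markers, 15 of them tested, summed to 285 to 1088 CPM, 157 to 679.96 CPM and 316 to 923 CPM, with Ckm at 0 in both inhibitor groups. Of 8 endothelial markers only 2 passed the filter, and these summed to 2.18 to 4.82 CPM, 0.736 to 3.10 CPM and 1.11 to 4.69 CPM. Among all 8, Cdh5 and Cldn5 were at 0 with DMSO, Tie1, Cldn5 and Emcn with FMK, and Pecam1, Tie1 and Emcn with OPH. The 10 interferon response genes were higher with both inhibitors, in 10 of 10, at 139 to 275 CPM with DMSO, 7362 to 9665 CPM with FMK and 6657 to 7182 CPM with OPH. The part of these shifts in the changes of the 33 genes was not tested.

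Some of the genes share their locus with another gene, and the sources used here do not say whether counting used the strand. Syvn1 overlaps Mrpl49 on the opposite strand, whose counts were 71.0% of those of Syvn1. The same holds for Fkbp14 and Plekha8 (29.2%), Fkbp10 and Nt5c3b (11.9%), Serp1 and Eif2a (8.93%) and Manf and Dcaf1 (8.69%). Manf also overlaps Rbm15b on the same strand (19.96%). How many reads of these pairs were counted for the other gene is not known.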

How the data were processed

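Libraries were 3′ tag libraries (Lexogen QuantSeq, forward kit) of total RNA, 3 for each of 3 groups, per the labels' protocols. The authors deposited counts per gene and library. The tools were STAR, cutadapt, FastQC, MultiQC and DESeq2 with mm10, per the submitters' processing notes. For the counting program, annotation, strand and versions, the record is "not given in the sources used here". The authors' deposited table also holds mean normalised signal, log2 fold changes, standard errors, test scores and p-values of their comparisons, which served for no result. Groups came from the sample labels; 7 count columns carry an added letter beside the sample title, and each matches 1 title only. Rows that name no gene, 99 in all, held 1 count and were left out.

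CPM were computed from library totals scaled by TMM. Genes kept by edgeR's filter on low counts, 13255, were fitted with edgeR 4.0.16 (R 4.3.3) over all 9 libraries, and quasi-likelihood tests were adjusted by Benjamini-Hochberg over all of them. The 95% intervals and standard errors come from that fit. Alternatives were RLE scaling, library size alone, no filter or a stricter filter (10 CPM in 3 libraries), DESeq2 1.42.0, limma-voom (limma 3.58.1), the 2 groups alone, the replicate number as a block, each library left out, and libraries 1 and 2 alone. An exact permutation test of 3 against 3 libraries cannot go below p = 0.1 and was not used.

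Deviations from the group means of libraries with the same number correlated in all 9 pairs, at 0.102 to 0.344. The main fit did not pair the libraries, so its calls, intervals and standard errors leave this shared part in the spread. The fit with the replicate number as a block is given as an alternative. The labels do not say what libraries of 1 number have in common. Replicates of a group differed by more than sampling noise, with a chi-square per degree of freedom of 5.62 to 14.1. The p-values measure the spread between these cultures. The 33 genes and all lists were chosen with earlier results of these data known. All 33 are accounted for; of each other pathway list up to 4 genes with the smallest p among those called against DMSO are named. Promoter sequences are RefSeq's, of GRCm38.p6.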

Additional observations from a re-analysis of the deposited data

How the results depend on the processing

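Every call on the 33 genes kept its sign under all 15 alternatives, and fewer stayed under the threshold in all of them. These were 3 of 12 calls with FMK, 10 of 17 with OPH and 2 of 7 between the inhibitors. With library size as the only scaling, FMK against DMSO gave 17 of the 33 genes lower and 0 higher. The whole table shifted there, with a median log2 fold change of -0.11 and 34.3% of all calls higher in place of 50.8%. OPH against FMK then gave 4 called, 1 lower, with 385 genes lower and 1103 higher over the table. With the replicate block, OPH against FMK gave 2139 genes called, 1108 lower and 1031 higher, and 11 of the 33 genes called, 9 lower. The block added 2 calls among the 33 genes with FMK and 2 with OPH, named beside those genes, and changed no other call on them against DMSO. Leaving out 1 library at a time, FMK against DMSO gave 4 to 11 of the 33 genes called, 3 to 10 lower and 0 to 1 higher. OPH against DMSO gave 11 to 15, all lower, with 696 to 848 genes lower over the table. OPH against FMK gave 3 to 5 called, 2 to 4 lower and 1 to 2 higher, with 571 to 1050 genes called over the table, 306 to 580 lower and 265 to 470 higher. For Ern1, Hyou1, Sdf2l1, Dnajb9 and Creld2, all under 50 CPM, few counts limit the precision.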
